A study of Rattus norvegicus with 6 samples.

Results

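Matrix metalloproteinases (MMPs), ADAMTS proteinases and the tissue inhibitors of metalloproteinases (TIMPs) were followed after exposure to compound 915 in neonatal rat ventricular myocytes, a primary culture of the heart muscle cells of newborn rats. The members are the rows of the deposited gene table whose symbol begins with Mmp, Timp or Adamts followed by a digit, taken once per Ensembl identifier. This gave 42 genes of 21648, made up of 21 MMP, 17 ADAMTS and 4 TIMP genes. No row bore the symbol Adamts2, Adamts5, Mmp11 or Mmp25, so the counts by family and subfamily leave these genes out. The rule reads gene symbols and no measured value.

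Cells given 10 µM 915 for 72 h, wild type, gave 3 libraries, and these were set against 3 libraries from wild-type cells given an equivalent volume of DMSO, the solvent, for 72 h. In the design text 915 is an ERR agonist, and the ERRs (estrogen-related receptors) are nuclear receptors that drive genes of mitochondrial energy metabolism. All cells came from pups of postnatal day 3, and fibroblasts were reduced by letting them attach to plastic for 90 min before the myocytes were seeded. Cells of both groups were seeded in 100 µM bromodeoxyuridine, which limits the growth of dividing cells, and then kept with insulin, transferrin and selenium. The labels call the libraries biological replicates without saying whether they came from separate isolations or pools of pups, so the p-values below reflect how far these 6 libraries vary, and some of that variation may be technical.

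MMPs and ADAMTS proteinases are zinc enzymes that cut proteins of the extracellular matrix. Most are made as inactive precursors held by a prodomain, and their activity is set by transcription, by removal of that prodomain and by inhibitors. The TIMPs occupy the catalytic site of active MMPs, and TIMP3 also inhibits several ADAMTS aggrecanases. In heart, these enzymes are known for their part in matrix turnover during growth, infarct healing and fibrosis, and fibroblasts and leukocytes are major sources beside the myocytes. Transcript levels do not measure the activity of the enzymes.

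With 915 the MMP genes moved both ways, and almost all ADAMTS genes that changed were lower. Of 34 members with enough reads to test, 9 were higher and 19 lower. The stromelysin genes Mmp3 and Mmp10 were 4.96-fold and 5.72-fold higher and the gelatinase gene Mmp9 was 2.35-fold higher. The ADAMTS genes Adamts19 and Adamts8 were 3.3-fold and 2.42-fold lower, and the inhibitor gene Timp3 was 1.96-fold lower while Timp1 was 1.4-fold higher. These calls are those of edgeR's quasi-likelihood test at an adjusted p of 0.05 over the 14253 genes tested, of which 24.3% were higher and 25.5% lower and beside which the members' counts are to be read.

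By family, 7 of 14 tested MMP genes were higher and 6 lower, 1 of 16 tested ADAMTS genes was higher and 11 lower, and 1 of 4 TIMP genes was higher and 2 lower. The median log2 fold change was 0.15 over the tested MMP genes, −0.58 over the tested ADAMTS genes and −0.33 over the TIMP genes, beside −0.01 over all genes tested. Changes of at least 2-fold were found in 4 MMP genes that were higher and in 1 that was lower, and in 5 ADAMTS genes, all lower. Among all genes tested, 1.77% were higher and 6.9% lower by that margin. Mmp13, Mmp10 and Mmp8, with changes of that size, would not have passed the filter on low counts through their lower group alone. The filter asked for 3 libraries, and 0, 2 and 2 libraries of that group were above it. In 30 of the 34 tested members the deposited levels of the 915 and DMSO libraries did not overlap, and the same held for 56.7% of all tested genes.

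**Figure D1:**
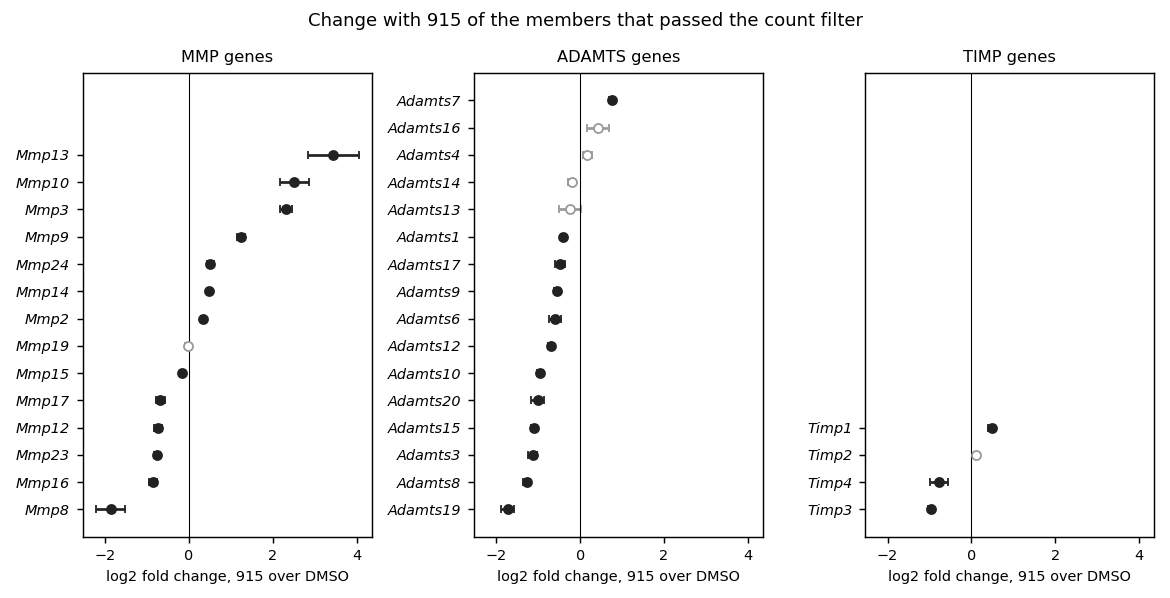
Log2 fold change, 915 over DMSO, of each tested member (points, with the standard error as bars), by family. Filled points passed an adjusted p of 0.05 and open points did not. MMP genes spread to both sides of 0, from −1.87 for Mmp8 to 3.45 for Mmp13, whereas 1 ADAMTS gene, Adamts7, has a filled point above 0.

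The cell type named by the labels was checked with marker genes. Cardiomyocyte markers were abundant and 8 of 9 tested were higher (summed level 26440 to 27150 CPM in 915 libraries and 19080 to 20220 CPM in DMSO libraries). Markers of other cell types were detected in both groups. Of 11 tested fibroblast markers 8 were lower and 2 higher (11240 to 11890 CPM in 915 libraries and 21230 to 22120 CPM in DMSO libraries), and among the 6 tested for smooth muscle or pericytes 5 fell and 0 rose (738 to 790 CPM in 915 libraries and 1770 to 1909 CPM in DMSO libraries). Of 9 tested macrophage markers 4 were lower and 0 higher (109 to 132 CPM in 915 libraries and 214 to 231 CPM in DMSO libraries), of 8 endothelial markers 4 were lower and 1 higher, of 4 epicardial markers 4 were lower and of 5 Schwann cell markers 4 were lower. The fibroblast sum was carried by Col1a1 and Col3a1, which are also counted below as matrix substrates: the other 9 markers summed to 2395 to 2545 CPM in 915 libraries and 2476 to 2538 CPM in DMSO libraries, which overlap. Postn supplied most of that remaining sum, with means of 1597 CPM with 915 and 1606 CPM with DMSO, and was not called. Among the other 9, Dcn and Pdgfra were higher, while Thy1 (5.54-fold), Ddr2, Lum, Fap, Pi16 and Tcf21 were lower. None of the fibroblast, smooth muscle, endothelial or macrophage markers in the table was at 0 in all libraries. The mast cell markers Cma1, Tpsab1 and Ms4a2 and the T cell marker Cd3e were at 0 in all 6. The 1 mast cell marker tested was not called, and of 2 lymphocyte markers tested 1 was lower. In such bulk cultures, fewer cells of a type and less RNA per cell cannot be told apart, and the part of these shifts in the changes of the members was not tested.

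Levels are given as deposited CPM, the counts scaled to the authors' total for each library, which was 32709227 to 40652711 in 915 libraries and 39513590 to 42975767 in DMSO libraries. The limit that a count of 0 allows, taken as 3 reads, is 0.0738 to 0.0917 CPM in 915 libraries and 0.0698 to 0.0759 CPM in DMSO libraries (counting error only, since reads carry no molecular identifiers). CPM is not corrected for transcript length, so it is compared between groups and not between genes. Fold changes were scaled by TMM, whose factors were 0.977 to 0.982 for 915 and 1.01 to 1.03 for DMSO libraries. Increases with 915 are therefore slightly larger, and decreases slightly smaller, than the CPM values alone give.

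Both gelatinase genes, whose products cut denatured collagen and the collagen of basement membranes, rose. For Mmp2 (ENSRNOG00000016695), gelatinase A, the levels were 1771, 1701 and 1815 CPM in the 915 libraries and 1524, 1430.0 and 1391 CPM in the DMSO libraries, and all 915 libraries lay above all DMSO libraries. It averaged 1762 ± 57.6 CPM with 915 and 1448 ± 68.5 CPM with DMSO (SD, n = 3 each), an increase of 1.26-fold (log2 fold change 0.33 ± 0.0479 SE, edgeR adjusted p = 5.15e-05). Mmp9 (ENSRNOG00000017539), gelatinase B, had 13.3, 12.6 and 13.8 CPM in the 915 libraries and 5.84, 5.92 and 5.72 CPM in the DMSO libraries. Its groups were far apart relative to their spread, with a 2.35-fold increase (log2 fold change 1.23 ± 0.0969 SE, edgeR adjusted p = 1.27e-07).

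The stromelysins, which cut a wide range of matrix proteins and activate other pro-MMPs, also rose. Mmp3 (ENSRNOG00000032626), stromelysin 1, stood at 8.24, 6.88 and 7.63 CPM in the 915 libraries and 1.49, 1.69 and 1.57 CPM in the DMSO libraries, with no overlap and a 4.96-fold increase (log2 fold change 2.31 ± 0.15 SE, edgeR adjusted p = 1.67e-08). Mmp10 (ENSRNOG00000032832), stromelysin 2, was counted at 2.17, 1.65 and 3.03 CPM in the 915 libraries and 0.209, 0.554 and 0.481 CPM in the DMSO libraries. The 915 libraries differed among themselves for Mmp10, with library 3 highest. The lowest of them was still above the highest DMSO library (5.72-fold, log2 fold change 2.52 ± 0.349 SE, edgeR adjusted p = 3.65e-05). With 2 DMSO libraries above the filter on low counts, Mmp10 would not have passed it on those alone.

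Of the collagenases, which cut fibrillar collagen, 1 rose and 1 fell, both with few reads. Mmp13 (ENSRNOG00000008478), collagenase 3, was below the 1 CPM that the naming of genes required and is described because its fold change was the highest among the members, a choice made after its value was seen. It had 42, 24 and 33 reads in the 915 libraries and 2, 0 and 8 reads in the DMSO libraries, or 1.1, 0.734 and 0.812 CPM in the 915 libraries and 0.0465, 0 and 0.203 CPM in the DMSO libraries. The fitted increase was 10.9-fold (log2 fold change 3.45 ± 0.604 SE, edgeR adjusted p = 2.85e-04) and rested on few DMSO reads: without DMSO library 3 it was 34.1-fold. Mmp13 passed the filter on low counts through the 915 libraries alone. Mmp8 (ENSRNOG00000009907), the collagenase known from neutrophils, had 10, 6 and 14 reads in the 915 libraries and 39, 45 and 42 reads in the DMSO libraries. That corresponds to 0.262, 0.183 and 0.344 CPM in the 915 libraries and 0.907, 1.08 and 1.06 CPM in the DMSO libraries, a 3.65-fold decrease with no overlap (log2 fold change −1.87 ± 0.355 SE, edgeR adjusted p = 5.59e-04). Mmp8 was above the filter in 2 libraries with 915 and would not have passed it on those alone. Beside Mmp8, the 7 neutrophil markers summed to 6.99 to 9.74 CPM in 915 libraries and 2.89 to 3.66 CPM in DMSO libraries. Camp supplied most of that sum, and the other 6 summed to 0.628 to 0.91 CPM in 915 libraries and 0.531 to 0.652 CPM in DMSO libraries, which overlap. Elane and Cxcr2 had at most 3 reads in any library, and of the 2 tested markers Camp was higher and Csf3r was not called. The other collagenase genes, Mmp1 and Mmp1b, had 0 and 2 reads in all 6 libraries together.

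Mmp12 (ENSRNOG00000030187), the elastin-cutting metalloelastase known from macrophages, fell 1.66-fold. The levels were 24.7, 21.8 and 29.7 CPM in the 915 libraries and 43.5, 46.2 and 41 CPM in the DMSO libraries, and the groups did not overlap (log2 fold change −0.73 ± 0.095 SE, edgeR adjusted p = 2.06e-05). Beside it, the macrophage markers Lyz2, Csf1r and Mrc1 were 2.06-fold, 2.46-fold and 2.31-fold lower, Cd68 had 41.7, 35.1 and 45 CPM in the 915 libraries and 44, 53.5 and 46.2 CPM in the DMSO libraries and was not called, and the whole list has its values above. Eln, the elastin gene and a substrate of the enzyme, had 427, 395 and 433 CPM in the 915 libraries and 2067, 1834 and 1855 CPM in the DMSO libraries (4.43-fold lower, log2 fold change −2.15 ± 0.0561 SE, edgeR adjusted p = 2.90e-12).

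Membrane-type MMPs act at the cell surface, and their genes divided. Mmp14 (ENSRNOG00000010947), which activates pro-MMP2 together with TIMP2, stood at 685, 689.7 and 720.2 CPM in the 915 libraries and 517, 528 and 514 CPM in the DMSO libraries. It averaged 698 ± 19.2 CPM with 915 and 519.9 ± 7.49 CPM with DMSO (SD, n = 3 each), an increase of 1.39-fold with a narrow spread in both groups (log2 fold change 0.47 ± 0.0446 SE, edgeR adjusted p = 8.02e-07). Mmp24 had 21.5, 18.7 and 20.0 CPM in the 915 libraries and 13.2, 15 and 15.5 CPM in the DMSO libraries, a 1.43-fold increase (log2 fold change 0.51 ± 0.0878 SE, edgeR adjusted p = 2.40e-04). In a later rat assembly, GRCr8, the gene Mmp24os overlaps Mmp24, and no source used here gives the strand setting of the counting, so reads of one could have been counted for the other.

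The remaining membrane-type genes were lower. Mmp16 levels were 10.7, 11.8 and 10.2 CPM in the 915 libraries and 22.9, 17.6 and 20.9 CPM in the DMSO libraries, a decrease of 1.82-fold (log2 fold change −0.86 ± 0.101 SE, edgeR adjusted p = 7.12e-06). Mmp17, whose product is held by a lipid anchor, had 8.9, 7.95 and 8.56 CPM in the 915 libraries and 14.3, 15.2 and 12.6 CPM in the DMSO libraries, 1.6-fold lower (log2 fold change −0.68 ± 0.10 SE, edgeR adjusted p = 6.19e-05). In both genes every 915 library was below every DMSO library. Mmp15 differed little, at 57.9, 58.3 and 58 CPM in the 915 libraries and 63.9, 70.2 and 66.7 CPM in the DMSO libraries (1.11-fold lower, log2 fold change −0.16 ± 0.0559 SE, edgeR adjusted p = 0.0321). The call of Mmp15 was lost in 6 of 12 alternative fits, among them those without any one of 915 libraries 1 to 3, DMSO library 2 or DMSO library 3, with adjusted p-values up to 0.122.

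Of the remaining MMP genes, Mmp23 (ENSRNOG00000017477), which encodes a membrane-bound MMP without the hemopexin domain of most others, fell 1.7-fold, with 59.1, 48.7 and 50.5 CPM in the 915 libraries and 94.8, 91 and 92.8 CPM in the DMSO libraries (log2 fold change −0.77 ± 0.0669 SE, edgeR adjusted p = 3.78e-07). Mmp19 had 34.4, 32.6 and 34 CPM in the 915 libraries and 36.5, 35.2 and 34.6 CPM in the DMSO libraries. Its CPM values did not overlap and yet its TMM-scaled change was close to 0 and was not called (log2 fold change −0.02 ± 0.0595 SE, edgeR adjusted p = 0.767). Mmp7, Mmp20, Mmp21, Mmp27 and Mmp28, together with Mmp1, Mmp1b and Adamts18, were the 8 members left out by the filter on low counts, with 0 to 33 reads summed over the 6 libraries and at most 10 in any one.

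**Figure D2:**
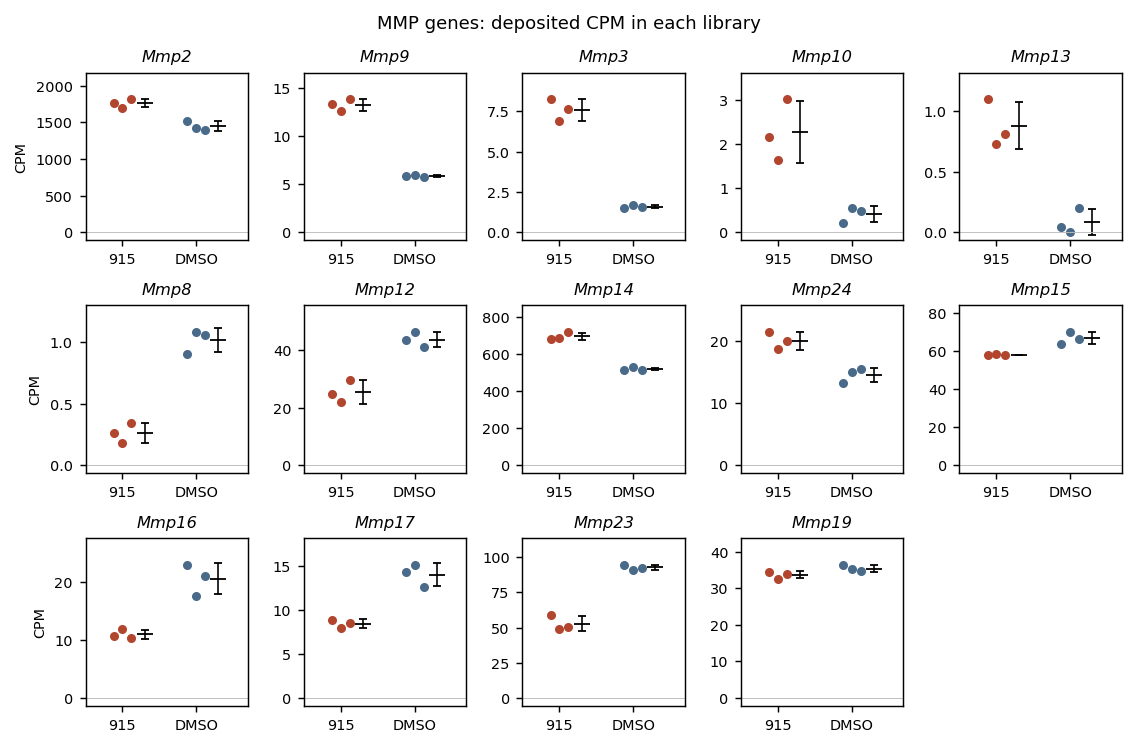
Deposited CPM of the 14 tested MMP genes in each library (points; 915 at left, DMSO at right; the bar beside each group is the mean ± SD, n = 3). The panels have their own scales. In Mmp9, Mmp3 and Mmp10 the 3 915 libraries lie well above the DMSO libraries, and in Mmp8, Mmp16 and Mmp23 well below them.

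Mmp3, Mmp10, Mmp13, Mmp12 and Mmp8 are neighbours: in GRCr8 they belong to a run of 10 MMP genes on chromosome 8 with 0 other protein-coding genes between them. In gene order the run is Mmp13, Mmp12, Mmp1b, Mmp3, Mmp1, Mmp10, Mmp8, Mmp27, Mmp20 and Mmp7. Of these, 5 had enough reads to test, and 3 rose and 2 fell, with genes of opposite direction lying side by side. To set genes that rose beside neighbours that fell, the sequence before each of the 5 is shown, together with that of Mmp1, which had 0 reads. Each run is the 120 bases before the annotated start, 5′ to 3′ on the strand of the gene, from RefSeq (GRCr8), and all 6 genes lie on the plus strand. Capitals mark the AP-1 motif TGAGTCA (or TGACTCA, the same motif on the other strand) and the TATA motif TATAAA (or TTTATA).

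The genes that rose come first, Mmp3 at chr8:12925161-12925280, Mmp10 at chr8:12974587-12974706 and Mmp13 at chr8:12782709-12782828.
Mmp3: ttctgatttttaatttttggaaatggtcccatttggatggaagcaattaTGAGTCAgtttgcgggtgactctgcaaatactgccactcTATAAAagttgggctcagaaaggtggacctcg
Mmp10: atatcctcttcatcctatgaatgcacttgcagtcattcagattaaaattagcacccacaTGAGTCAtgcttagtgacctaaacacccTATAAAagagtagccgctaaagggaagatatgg
Mmp13: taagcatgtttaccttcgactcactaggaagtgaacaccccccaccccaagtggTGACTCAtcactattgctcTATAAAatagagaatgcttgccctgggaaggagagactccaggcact

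The genes that fell or had no reads follow, Mmp12 at chr8:12866532-12866651, Mmp8 at chr8:13008770-13008889 and Mmp1 at chr8:12943333-12943452.
Mmp12: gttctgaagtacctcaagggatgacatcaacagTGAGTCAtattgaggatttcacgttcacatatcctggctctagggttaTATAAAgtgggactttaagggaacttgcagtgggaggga
Mmp8: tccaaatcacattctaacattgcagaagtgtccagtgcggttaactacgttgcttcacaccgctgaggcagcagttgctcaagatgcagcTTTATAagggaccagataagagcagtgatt
Mmp1: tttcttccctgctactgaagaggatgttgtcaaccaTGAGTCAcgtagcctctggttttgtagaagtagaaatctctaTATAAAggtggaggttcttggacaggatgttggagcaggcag

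AP-1 is a dimer of Jun and Fos proteins, and its site before collagenase and stromelysin genes is a textbook case of its binding. Over the 250 bases before the start, both strands searched, 4.42% of the 27457 genes with a RefSeq window held TGAGTCA. Of the 32 members with a window, 6 held it, and all 6 belong to this cluster of 10 (Mmp1, Mmp3, Mmp7, Mmp10, Mmp12 and Mmp13). The motif begins 71, 61 and 66 bases before the start in Mmp3, Mmp10 and Mmp13, which rose, and 87 bases before it in Mmp12, which fell. TATAAA was in 14.1% of the genes and begins 32, 33, 47 and 39 bases before the start in the same 4. In Mmp8 the window held no TGAGTCA. The motif of the estrogen-related receptors, TCAAGGTCA, was in 0.397% of the genes and in 0 of the 32 members, and the NF-kB consensus was in 3.82% of the genes and in 1 member, Adamts12. Mmp2, Mmp9, Mmp14, Mmp16, Mmp17, Mmp19, Adamts8, Adamts15, Adamts16 and Adamts19 had no window, so none of these motifs was searched in them. Genes of the cluster are related in sequence, so their matches are not independent, and a match is a description of these letters only.

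**Figure D3:**
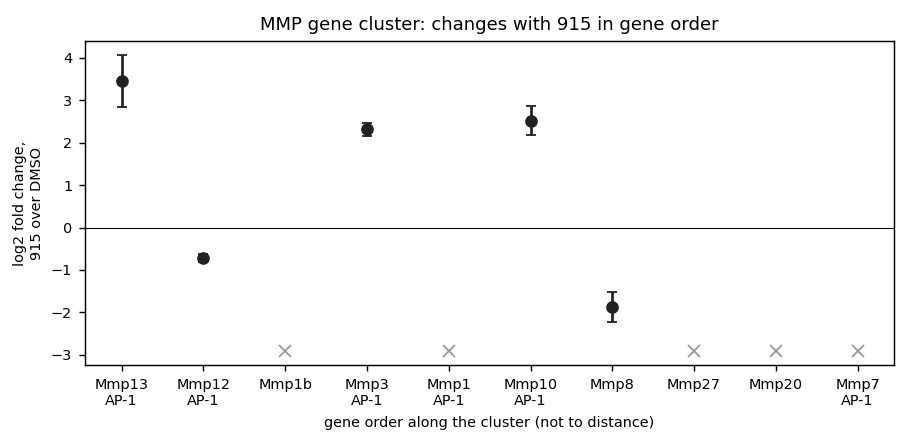
Log2 fold change, 915 over DMSO (points, with the standard error as bars), of the MMP genes in the order in which they lie in the cluster. Crosses along the lower edge mark genes with too few reads to test, and "AP-1" under a name marks TGAGTCA in the 250 bases before its start. Mmp13, Mmp3 and Mmp10 rise while Mmp12 and Mmp8, next to them in the order, fall, and the motif occurs in risers, in Mmp12 and in untested genes.

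Among the proteoglycan-cutting ADAMTS genes in the table, which has no row named Adamts5, 5 of 6 were lower and 0 higher. Adamts1 (ENSRNOG00000001607), which cuts versican and aggrecan, had 79.8, 75 and 75.9 CPM in the 915 libraries and 108, 102 and 104 CPM in the DMSO libraries. It fell 1.32-fold, with every 915 library below every DMSO library (log2 fold change −0.40 ± 0.0498 SE, edgeR adjusted p = 1.36e-05). Adamts8 (ENSRNOG00000005574) stood at 7.69, 7.92 and 7.55 CPM in the 915 libraries and 18.9, 18.8 and 20.2 CPM in the DMSO libraries, a 2.42-fold decrease (log2 fold change −1.27 ± 0.0848 SE, edgeR adjusted p = 2.13e-08). Adamts15 levels were 18, 17.7 and 17.9 CPM in the 915 libraries and 43.1, 36.3 and 38.8 CPM in the DMSO libraries, 2.13-fold lower (log2 fold change −1.09 ± 0.0717 SE, edgeR adjusted p = 1.90e-08). The 915 libraries lay within 1 CPM of each other for both of these genes.

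Of the long proteoglycanases, Adamts9, whose product cuts versican, had 41, 41.1 and 37.2 CPM in the 915 libraries and 63.1, 57 and 60.7 CPM in the DMSO libraries and fell 1.47-fold (log2 fold change −0.55 ± 0.061 SE, edgeR adjusted p = 4.15e-06). Adamts20 was at 2.62, 2.29 and 2.02 CPM in the 915 libraries and 5.24, 4.58 and 4.61 CPM in the DMSO libraries, and fell 2.01-fold (log2 fold change −1.01 ± 0.159 SE, edgeR adjusted p = 1.14e-04). Adamts4 (ENSRNOG00000003538), aggrecanase 1, was the proteoglycanase gene that was not called: its groups overlapped, with 13.3, 10.9 and 13.1 CPM in the 915 libraries and 10.8, 12.3 and 11.3 CPM in the DMSO libraries (log2 fold change 0.17 ± 0.101 SE, edgeR adjusted p = 0.178).

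The genes of the procollagen N-propeptidases, which trim newly made collagen, were lower in 1 of 2 cases, with no row named Adamts2. Adamts3 (ENSRNOG00000027463) had 5.34, 6.42 and 6.12 CPM in the 915 libraries and 14.9, 13.1 and 12.5 CPM in the DMSO libraries, a 2.19-fold decrease (log2 fold change −1.13 ± 0.109 SE, edgeR adjusted p = 1.03e-06). Adamts14 had 11.7, 12.9 and 13.2 CPM in the 915 libraries and 15, 14.6 and 15.3 CPM in the DMSO libraries. Its groups did not overlap, but the change did not pass (log2 fold change −0.20 ± 0.0842 SE, edgeR adjusted p = 0.0646). Col3a1, the gene of a fibrillar collagen, was 2.42-fold lower in the same libraries.

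Adamts7 and Adamts12, which encode a related pair of enzymes that bind and cut the matrix protein COMP, moved in opposite directions. Adamts7 (ENSRNOG00000028036) had 104, 104 and 104 CPM in the 915 libraries and 64.7, 66.4 and 60.4 CPM in the DMSO libraries. It was the ADAMTS gene called higher, by 1.68-fold, and its 915 libraries agreed within 1 CPM (log2 fold change 0.75 ± 0.0528 SE, edgeR adjusted p = 3.87e-08). Adamts12 (ENSRNOG00000018865) had 62.1, 68.6 and 59.3 CPM in the 915 libraries and 107, 101 and 112 CPM in the DMSO libraries, a 1.63-fold decrease with no overlap (log2 fold change −0.70 ± 0.0618 SE, edgeR adjusted p = 4.07e-07). The transcript of their substrate, Comp, was at 4.79, 4.55 and 6.37 CPM in the 915 libraries and 6.91, 6.19 and 5.34 CPM in the DMSO libraries and was not called (log2 fold change −0.18 ± 0.152 SE, edgeR adjusted p = 0.358).

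The microfibril-associated pair fell. Adamts10 (ENSRNOG00000008857), which binds fibrillin, stood at 20.6, 19.8 and 20.1 CPM in the 915 libraries and 43.1, 40.0 and 38.5 CPM in the DMSO libraries, 1.94-fold lower (log2 fold change −0.96 ± 0.0653 SE, edgeR adjusted p = 2.81e-08). Adamts6 had 4.95, 5.01 and 5.58 CPM in the 915 libraries and 8.19, 6.62 and 9.77 CPM in the DMSO libraries, 1.52-fold lower (log2 fold change −0.61 ± 0.143 SE, edgeR adjusted p = 0.00272), with a wider spread between DMSO libraries. The fibrillin gene Fbn1 was 2.36-fold lower in the same libraries.

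Adamts19 (ENSRNOG00000019577), known for a part in heart valve formation, had the steepest decrease of the ADAMTS genes, 3.3-fold, with 1.94, 2.57 and 2.09 CPM in the 915 libraries and 8.4, 7.25 and 6.78 CPM in the DMSO libraries (log2 fold change −1.72 ± 0.153 SE, edgeR adjusted p = 4.51e-07). Adamts17 had 5.0, 5.72 and 4.75 CPM in the 915 libraries and 7.75, 7.1 and 7.54 CPM in the DMSO libraries and fell 1.4-fold (log2 fold change −0.49 ± 0.119 SE, edgeR adjusted p = 0.00348). In both, the groups did not overlap. Adamts16 and Adamts13, which encodes the protease that trims von Willebrand factor, overlapped between groups and were not called, with log2 fold changes of 0.43 ± 0.262 and −0.25 ± 0.265 (SE; edgeR adjusted p = 0.188 and 0.460). They averaged 1.95 and 1.39 CPM with 915 and 1.5 and 1.7 CPM with DMSO. Beside the ADAMTS decreases, 8 of 11 fibroblast markers and 5 of 6 smooth muscle or pericyte markers were lower, while the fibroblast markers Dcn and Pdgfra were 1.4-fold and 1.22-fold higher and Postn and Rgs5 were not called.

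**Figure D4:**
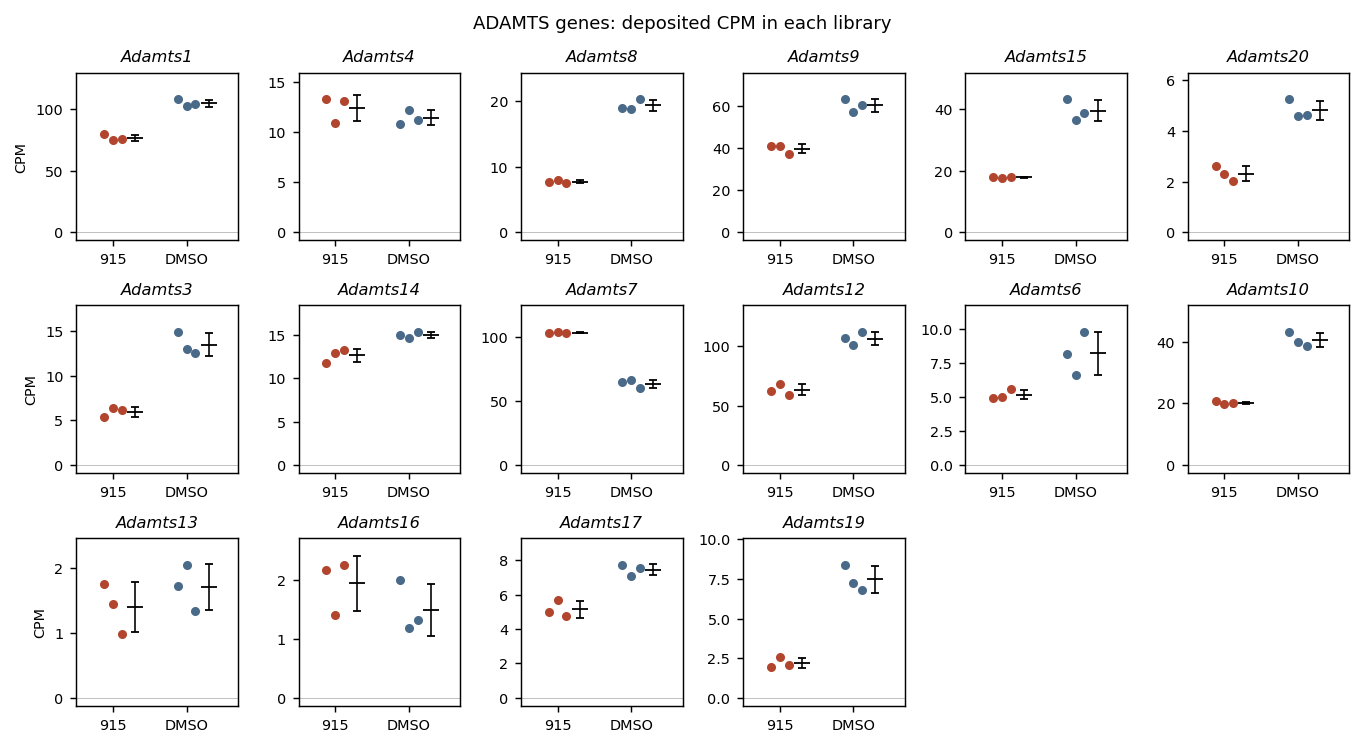
Deposited CPM of the 16 tested ADAMTS genes in each library (points; 915 at left, DMSO at right; the bar beside each group is the mean ± SD, n = 3), each panel on its own scale. Adamts7 is the called gene with higher 915 points, and in Adamts8, Adamts15, Adamts10, Adamts3 and Adamts19 all 915 points lie far below the DMSO points.

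The 4 inhibitor genes did not move together. Timp3 (ENSRNOG00000004303), whose product binds to the matrix and inhibits aggrecanases as well as MMPs, had 93.9, 96.3 and 93.8 CPM in the 915 libraries and 206, 179.7 and 191 CPM in the DMSO libraries. It averaged 94.7 ± 1.44 CPM with 915 and 192 ± 13.3 CPM with DMSO (SD, n = 3 each), a 1.96-fold decrease with no overlap (log2 fold change −0.97 ± 0.0528 SE, edgeR adjusted p = 2.79e-09). Timp1 (ENSRNOG00000010208), whose product also binds pro-MMP9, had 173, 167 and 214 CPM in the 915 libraries and 148, 134 and 128 CPM in the DMSO libraries. Its 915 library 3 was higher than the other two, and all were above the DMSO libraries (1.4-fold higher, log2 fold change 0.48 ± 0.0818 SE, edgeR adjusted p = 2.12e-04).

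Timp2 (ENSRNOG00000003148), whose product takes part in the activation of pro-MMP2 at the cell surface, had 605, 573 and 625 CPM in the 915 libraries and 550.2, 603 and 569.5 CPM in the DMSO libraries. The groups overlapped and the change was not called (log2 fold change 0.11 ± 0.0522 SE, edgeR adjusted p = 0.0837), but it passed without 915 library 2 (adjusted p = 0.0431) or without DMSO library 2 (adjusted p = 0.0119). Timp4 (ENSRNOG00000007955), known as the TIMP of heart muscle, was scarce, with 49, 37 and 43 reads in the 915 libraries and 89, 82 and 84 reads in the DMSO libraries, or 1.28, 1.13 and 1.06 CPM in the 915 libraries and 2.07, 1.98 and 2.13 CPM in the DMSO libraries. It fell 1.72-fold (log2 fold change −0.78 ± 0.216 SE, edgeR adjusted p = 0.00801).

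In GRCr8, Timp1, Timp3 and Timp4 overlap the synapsin genes Syn1, Syn3 and Syn2. Syn2 was counted at 3.69 to 4.25 CPM in 915 libraries and 4.05 to 4.72 CPM in DMSO libraries, above Timp4 itself, so that shared reads could bear on Timp4. Syn1 and Syn3 were at most 1.31 CPM in 915 libraries and 1.47 CPM in DMSO libraries, against over 90 CPM for Timp1 and Timp3.

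Proteases and inhibitors were set against each other in 8 pairs of a protease and a TIMP known to bind it or its family. The ratio of their CPM was taken in each library. A further planned pair, Adamts5 over Timp3, was left out because no row bore the symbol Adamts5. With 3 libraries a side, the exact two-sided permutation test over libraries cannot go below 0.1, and each of the 8 pairs reached that value because its groups did not overlap (0.1 also after adjustment over the pairs). The pairs with Timp3 as inhibitor had higher ratios with 915. Mmp14 over Timp3 was 7.29, 7.16 and 7.68 in the 915 libraries and 2.51, 2.94 and 2.69 in the DMSO libraries (log2 difference 1.45). Adamts4 over Timp3 was 0.142, 0.114 and 0.14 in the 915 libraries and 0.0526, 0.0682 and 0.0589 in the DMSO libraries (log2 difference 1.14), though Adamts4 itself was not called. Adamts1 over Timp3 was also higher, 0.85, 0.778 and 0.81 in the 915 libraries and 0.524, 0.569 and 0.545 in the DMSO libraries (log2 difference 0.57), since Adamts1 fell by less than Timp3.

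Against Timp1, the ratio was higher with 915 for Mmp3 and Mmp9. Mmp3 over Timp1 was 0.0477, 0.0413 and 0.0357 in the 915 libraries and 0.0101, 0.0126 and 0.0123 in the DMSO libraries (log2 difference 1.83). Mmp9 over Timp1 was 0.0772, 0.0756 and 0.0646 in the 915 libraries and 0.0395, 0.0443 and 0.0447 in the DMSO libraries (log2 difference 0.76). Mmp2 over Timp1 was slightly lower with 915, at 10.2, 10.2 and 8.49 in the 915 libraries and 10.3, 10.7 and 10.9 in the DMSO libraries (log2 difference −0.14), and without 915 library 3 the log2 difference was −0.05. Against Timp2, the ratio of Mmp14 was 1.13, 1.2 and 1.15 in the 915 libraries and 0.94, 0.877 and 0.903 in the DMSO libraries (log2 difference 0.36), and that of Mmp2 was 2.93, 2.97 and 2.9 in the 915 libraries and 2.77, 2.37 and 2.44 in the DMSO libraries (log2 difference 0.22).

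**Figure D5:**
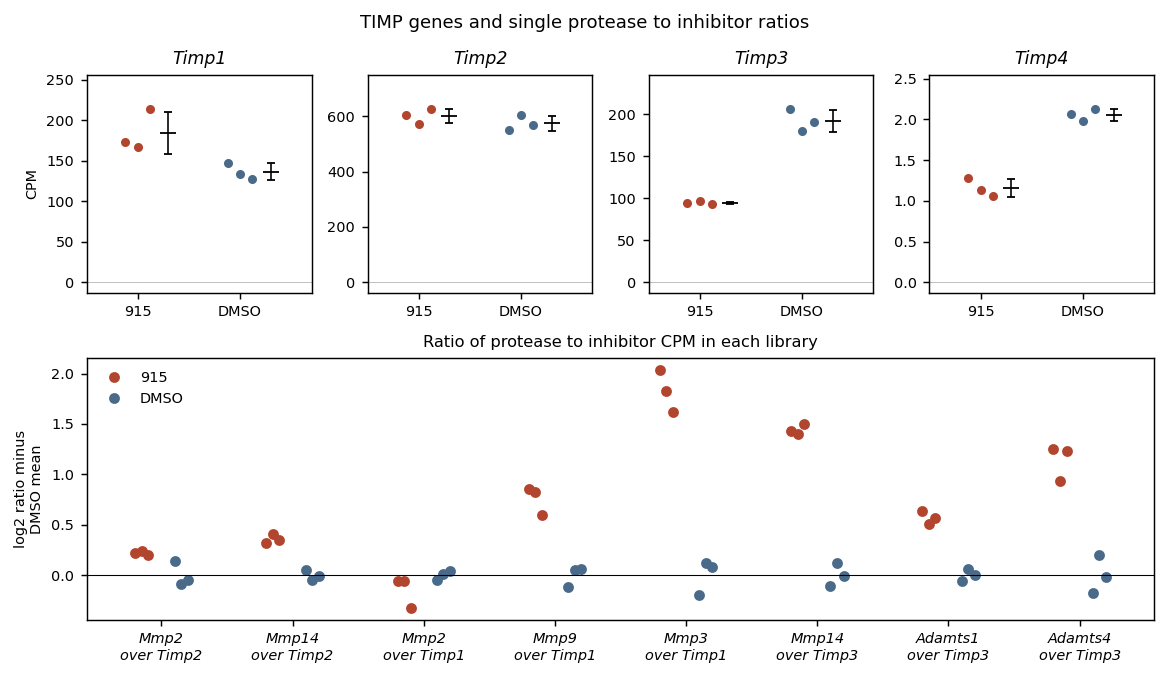
Upper panels give the deposited CPM of the TIMP genes in each library (points; 915 at left, DMSO at right; the bar beside each group is the mean ± SD, n = 3). The lower panel gives the log2 ratio of protease to inhibitor CPM in each library, relative to the mean of the DMSO libraries for that pair. The 915 points lie above the DMSO points in 7 of the 8 pairs and below them for Mmp2 over Timp1.

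Summed over each family, reads shifted towards MMPs and away from ADAMTS genes. The sums are read shares, weighted by abundance and not corrected for length, and were not tested. The MMP genes together had 2699, 2612 and 2772 CPM in the 915 libraries and 2339, 2258 and 2199 CPM in the DMSO libraries. Mmp2 and Mmp14 supplied 91.3% ± 0.266 of that sum with 915 and 86.9% ± 0.337 with DMSO (SD, n = 3 each). Without these 2 genes the MMP sum was lower with 915, at 243, 222 and 237 CPM in the 915 libraries and 298, 299.8 and 294 CPM in the DMSO libraries. The ADAMTS genes summed to 382, 383 and 372 CPM in the 915 libraries and 522, 491 and 506 CPM in the DMSO libraries.

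The TIMP sum overlapped between groups, with 873, 837 and 934 CPM in the 915 libraries and 906, 918 and 891 CPM in the DMSO libraries, and the sign of its small difference turned with the scaling (−23.9 CPM, or 6.75 CPM after TMM scaling). Its make-up shifted: Timp3 gave 10.8% ± 0.731 of the TIMP sum with 915 and 21.3% ± 1.60 with DMSO, and Timp1 gave 20.9% ± 1.75 with 915 and 15.1% ± 1.07 with DMSO (SD, n = 3 each). The ratio of the MMP sum to the TIMP sum was 3.09, 3.12 and 2.97 in the 915 libraries and 2.58, 2.46 and 2.47 in the DMSO libraries. For the ADAMTS sum the ratio was 0.437, 0.458 and 0.398 in the 915 libraries and 0.576, 0.534 and 0.567 in the DMSO libraries.

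Other genes of pericellular proteolysis were read from lists of the pathway. Plau, Plat, Serpinb2, Adamtsl5, Furin, Vcan, Dcn, Comp, Fos, Tgfb1 and Tgfb2 fall outside the rule for naming genes and were chosen after their values were seen. Plasmin, made from plasminogen by the activators Plau and Plat, can activate pro-MMPs. Of the 10 genes of plasminogen activation and its inhibitors 1 was higher and 5 lower (median log2 fold change −0.50, beside −0.01 over all genes tested). The activator gene Plau had 5.68, 4.68 and 6.32 CPM in the 915 libraries and 16.5, 14.3 and 13.8 CPM in the DMSO libraries (2.58-fold lower), and Plat, the other activator gene, had 161, 158 and 171 CPM in the 915 libraries and 170.0, 156 and 153 CPM in the DMSO libraries and was not called. The inhibitor gene Serpine2 and the annexin 2 complex genes Anxa2 and S100a10, whose products bind plasminogen at the cell surface, were 1.75-fold, 1.46-fold and 1.56-fold lower. The higher member was Serpinb2, which encodes an inhibitor of plasminogen activators, at 3.7-fold.

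Inhibitors outside the TIMP family were mostly lower. Of 5 tested genes 3 were lower and 0 higher (median log2 fold change −0.66). Reck, which encodes a membrane-anchored MMP inhibitor, had 28.2, 31.9 and 25.7 CPM in the 915 libraries and 46.8, 44.6 and 48.3 CPM in the DMSO libraries, 1.58-fold lower, and Papln, for the ADAMTS-binding protein papilin, was 3.74-fold lower. Spock3 was scarce and fell 3.27-fold, with 0.576, 0.306 and 0.394 CPM in the 915 libraries and 1.33, 1.25 and 1.8 CPM in the DMSO libraries. The ADAMTS-like genes, whose products resemble ADAMTS proteins without the protease domain, numbered 5, of which 4 fell and 1 rose (median log2 fold change −0.90). Adamtsl3, Adamtsl2 and Adamtsl1 were 2.6-fold, 2.12-fold and 1.86-fold lower, and Adamtsl5 was 1.22-fold higher.

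In the ADAM family, membrane proteases that shed cell surface proteins, 4 of 9 tested genes were lower and 1 was higher (median log2 fold change −0.30). Of the 12 genes on that list, Adam10 and Adam17 had no row under those symbols, so the counts leave them out. Adam12 and Adam23 were 2.17-fold and 1.45-fold lower, and Adam19 was 1.18-fold higher. All 4 tested genes of the tolloid list, which holds the procollagen C-proteinases Bmp1 and Tll1 and their enhancers, were lower, among them Pcolce, Bmp1 and Tll1 at 1.7-fold, 1.3-fold and 1.75-fold (median log2 fold change −0.69). Of the convertase list, whose furin-type enzymes remove the prodomain of membrane-type MMPs and ADAMTS proteins, 2 of 5 were higher and 1 lower (median log2 fold change 0.08). Pcsk6 and the MMP inducer Bsg were 1.26-fold and 1.27-fold higher, Pcsk5 was 1.4-fold lower and Furin itself had 225, 216 and 234 CPM in the 915 libraries and 215, 219.7 and 224 CPM in the DMSO libraries and was not called.

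Of the clearance receptors, Lrp1, which takes up several MMPs and TIMP3, was 1.1-fold higher, a call that was lost without 915 library 1 or DMSO library 3 and with the replicate number as a block, while Mrc2, for a receptor of collagen fragments, was 1.15-fold lower. Of 16 tested genes for matrix substrates 10 were lower and 1 higher (median log2 fold change −0.57). The versican gene Vcan, a substrate of several ADAMTS proteinases, had 152, 174 and 157 CPM in the 915 libraries and 274, 214 and 280.2 CPM in the DMSO libraries (1.54-fold lower), and the higher member was the decorin gene Dcn, at 1.4-fold.

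Genes listed as regulators of MMP transcription moved both ways. In the list of cytokines and receptors that regulate MMP genes, 8 of 12 tested genes were higher and 3 lower (median log2 fold change 0.40). Il1b, the interleukin known to induce stromelysins and collagenases in fibroblasts, had 1.88, 1.96 and 2.48 CPM in the 915 libraries and 0.256, 0.169 and 0.203 CPM in the DMSO libraries, 10.3-fold higher (log2 fold change 3.36 ± 0.317 SE, edgeR adjusted p = 8.10e-07). Il1b, like Mmp13, would not have passed the filter on low counts through its DMSO libraries alone. Lif was 2.59-fold higher and Tgfb3 2.02-fold lower, and the other lower genes were Tgfb1 and Tgfb2. In the list of AP-1, ETS, RUNX and NF-kB factors 6 of 12 were higher and 1 lower (median log2 fold change 0.22). The AP-1 genes Junb and Jund were 1.77-fold and 1.41-fold higher, Ets1 was 1.53-fold lower, and Fos had 16.6, 15.9 and 17.3 CPM in the 915 libraries and 16, 17.9 and 16.5 CPM in the DMSO libraries and was not called. Il1b and Junb stand here beside Mmp3, Mmp10 and Mmp13 as values of the same libraries, and a link between them was not tested.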

How the data were processed

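The authors deposited a table of raw counts per gene and a table of CPM for 6 libraries. Per the submitters' processing notes, STAR 2.5.1a, Subread featureCounts 1.4.6-p5 and the build Rnor_6.0 were used. How strand and multi-mapping reads were handled is not given in the sources used here. The deposited CPM equal the counts over 1 total per library, and the count table holds 93.1% to 93.7% of that total. Of 22641 rows, 993 that repeat an Ensembl identifier were dropped.

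Counts were filtered with filterByExpr (about 0.267 CPM in at least 3 libraries), scaled by TMM and fitted with edgeR 4.0.16 (R 4.3.3) by the quasi-likelihood model on group alone, two-sided, with Benjamini-Hochberg adjustment over 14253 genes and a threshold of 0.05. The standard error is the size of the log2 fold change over the square root of F. The biological coefficient of variation was 6.84%, and 7943 genes had an unadjusted p under 0.05. Alternatives were DESeq2 1.42.0, other scaling and filters, a replicate block and leaving out each library. Ratios were tested with an exact permutation test in scipy 1.17.1.

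Members, lists and tests were chosen with earlier results of these data known. The 10 pathway lists and 10 marker lists hold 176 entries, of which 160 were in the table. Members with an adjusted p under 0.05 and a mean of at least 1 CPM in a group, the TIMP genes, Mmp2, Mmp9, Mmp14, Adamts1 and Adamts4 are described library by library, with up to 3 members of each pathway list by smallest p. Promoter sequences and gene order are RefSeq's for GRCr8, matched by symbol for 32 of 42 members. No gene length of the build was at hand. Some genes of the lists are not reported here.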

Additional observations from a re-analysis of the deposited data

How the results depend on the processing

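Of 406 combinations of a tested member and an alternative fit, 396 kept the direction and the side of the threshold. Mmp15 lost its call in 6, Adamts14 gained one with library totals alone (log2 fold change −0.26, adjusted p = 0.0214), Timp2 gained one without 915 library 2 or DMSO library 2, and Mmp19, not called, changed sign without 915 library 2 (−0.0382 to 0.00197 over the left-out libraries). The cause was not tested. Leaving out 1 library at a time gave 7 higher MMP genes each time, 5 to 6 lower MMP genes, 1 higher and 11 lower ADAMTS genes, and 1 to 2 higher and 2 lower TIMP genes; over all genes 2939 to 3496 were higher and 3105 to 3551 lower. With library totals alone, 2808 genes were higher and 4285 lower over all, where TMM scaling gave 3460 and 3636. The difference of the MMP sum, 429 CPM, was 549 CPM after TMM scaling. Same-numbered libraries did not deviate together (Pearson r across genes −0.0338, −0.111 and −0.0896), so the labels' numbers were not taken as pairs; with the replicate block 7 MMP genes were higher and 5 lower, and 2996 genes were higher and 3197 lower over all. At these depths the members under the filter could not be compared, and Mmp13 and Mmp8 rest on 109 and 156 reads in all and gave no value when at least 1 CPM in 3 libraries was required.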
